A study of Mus musculus with 8 samples.

Results

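The 10 genes described here are *Etv1*, *Etv4*, *Etv5*, *Ets1*, *Ets2*, *Elk3*, *Egr1*, *Myc*, *Ier3* and *Phlda1*, which encode transcription factors and early-response proteins known to lie downstream of ERK signalling. They were taken by symbol from a table of read counts per gene, and all 10 were found among its 50600 genes and passed the filter on low counts. Poly(A) RNA was sequenced from 2 mouse lines of malignant peripheral nerve sheath tumour (MPNST), with 2 replicate libraries in each of 4 groups. NF1-MET cells were isolated from a *Met*-amplified, *Trp53*-wildtype tumour of a mouse with a floxed and a null *Nf1* allele (Nf1 fl/ko), a lox-stop-loxMET tg/+ transgene and Plp-creERT tg/+, in which the *Plp* promoter, active in glial cells, drives an inducible Cre. NF1-MET;sgP53 cells, called the edited line below, were derived from NF1-MET by CRISPR-Cas9 with a lentiviral guide against *Trp53*. Both lines carry the same *Nf1* and *Met* background, and both lack *Cdkn2a* as far as the study describes the parental line. Either line was kept for 24 h in vehicle (DMSO) or in 100 nM capmatinib, a MET kinase inhibitor. Each genotype was represented by 1 line, so that loss of p53 and other differences between the lines cannot be told apart. The columns of the NF1-MET libraries carry the letters EV, which may stand for an empty vector, while the sample records name NF1-MET alone. The treatments were given in duplicate to cells plated in 6-well plates. Whether the duplicates were run as independent experiments is not stated in the sources used here, so the p-values measure only the spread between these libraries.

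A receptor tyrosine kinase such as MET activates RAS, and RAS starts the kinase cascade from RAF through MEK to ERK. NF1 is a GTPase-activating protein that switches RAS off, and its loss leaves RAS signalling less restrained in these tumours. ERK enters the nucleus, where it phosphorylates ETS-family transcription factors and raises the transcription of early-response genes such as *Egr1* and *Ier3*. *Etv1*, *Etv4* and *Etv5*, which form the PEA3 group of ETS factors, are released from the repressor Capicua (CIC) when ERK is active. MYC, a transcription factor of growth and ribosome production, is stabilized by ERK at the protein level, which transcript counts do not measure.

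The DNA just before the transcription start is shown for 3 members that moved differently under capmatinib, *Elk3* and *Etv5*, which fell, and *Ier3*, which rose. The sequences are RefSeq promoter windows on GRCm38.p6, the mm10 assembly, limited to bases outside the annotated gene and written 5′ to 3′ on the strand of the gene. Capitals mark the letters CCAAT, GGAATTTCC and TATAA, which were searched on both strands. The *Elk3* stretch is chr10:93311160-93311409 on the minus strand, that of *Etv5* is chr16:22439720-22439820 on the minus strand, and that of *Ier3* is chr17:35821463-35821683 on the plus strand.
*Elk3*: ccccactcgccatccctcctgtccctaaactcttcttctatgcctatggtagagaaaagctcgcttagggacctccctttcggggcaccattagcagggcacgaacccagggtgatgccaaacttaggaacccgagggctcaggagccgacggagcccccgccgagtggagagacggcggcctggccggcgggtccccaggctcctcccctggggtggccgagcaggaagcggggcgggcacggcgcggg
*Etv5*: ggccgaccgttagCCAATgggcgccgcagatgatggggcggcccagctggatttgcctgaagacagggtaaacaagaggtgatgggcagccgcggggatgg
*Ier3*: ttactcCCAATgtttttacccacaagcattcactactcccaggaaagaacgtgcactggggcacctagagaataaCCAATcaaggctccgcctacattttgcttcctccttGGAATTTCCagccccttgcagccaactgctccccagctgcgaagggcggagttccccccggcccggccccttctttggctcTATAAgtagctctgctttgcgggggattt

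The *Elk3* stretch held 67.2% G and C with 19 CpG pairs in 250 bases, the *Etv5* stretch 64.4% with 7 CpG pairs in 101 bases, and the *Ier3* stretch 54.3% with 7 CpG pairs in 221 bases. The median of 32851 full RefSeq windows of 250 bases before the start was 52.4%. The full window of *Ier3* held 54.4% and the first of *Etv5* 71.2%. Distances are counted from the RefSeq start, which for *Etv5* and *Ier3* lies inside the annotated gene, beyond the end of the stretch shown. The *Ier3* window held CCAAT 244 and 175 bases before the start, GGAATTTCC, the letters of an NF-kB site, 139 bases before it and TATAA 58 bases before it. The first *Etv5* window held CCAAT 237, 142 and 110 bases before its start, 1 of them in the stretch shown. Of all windows, 37.4% held CCAAT, 24.9% held TATAA and 0.317% held GGAATTTCC. Windows were given for 5 of the 10 members (*Etv1*, *Etv5*, *Ets2*, *Elk3* and *Ier3*, 7 windows in all). None of these 7 windows held the CIC octamers TGAATGAA (1.30% of all windows) and TGAATGGA (1.21%) or the letters CCGGAA (14.9%), a form of the ETS site. Other forms of the ETS site were not searched. The windows also lacked the E-box CACGTG (7.15%), which MYC binds, and the AP-1 letters TGACTCA (5.2%). The CArG box (1.63%), which serum response factor binds, was absent as well. These are matches of letters in short windows and say nothing on whether a factor was bound.

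Total counts were between 30.1 and 42.8 M per library, and the 10 members held 0.127% to 0.152% of them. *Gm42418*, which overlaps ribosomal RNA sequence, held 1.11% to 13.1% of the counts, with the lowest share in replicate 2 of NF1-MET;sgP53 on capmatinib. *Trp53* was measured at 182 and 193 CPM (counts for each M counts of a library) in NF1-MET on vehicle, 126 and 128 CPM on capmatinib, 97.5 and 100.1 CPM in the edited line on vehicle, and 68.0 and 68.8 CPM on capmatinib. The transcript was thus present but lower in the edited line, and a guide need not remove the transcript. Its target *Cdkn1a*, the cell cycle inhibitor p21, was lower there too, by a log2 difference of -1.69 in vehicle (SE 0.0439) and -1.95 in capmatinib (SE 0.0536). Markers of Schwann cells, the lineage of the tumour, were near absent, with a summed level of 1.89 to 4.23 CPM over 8 genes and at most 7 counts of *Sox10*. The summed level was 1.77 to 2.12 CPM for 6 leucocyte markers (*Adgre1* and *Cd3e* at 0 counts), 0.326 to 0.578 CPM for 5 endothelial markers and 0 to 0.211 CPM for 5 epithelial markers. The 5 mesenchymal markers summed to 8704 to 9131 CPM on vehicle against 20701 to 21261 CPM on capmatinib. Of these, *Col1a1*, *Pdgfrb* and *Thy1* were higher on capmatinib in both lines (log2 fold changes of 2.64, 1.29 and 1.43 in NF1-MET), while *Vim* and *Pdgfra* were lower in both (-0.21 and -0.38 in NF1-MET), and the part of these changes in the results below was not tested.

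A gene was called where the quasi-likelihood test of edgeR gave a p under 0.05 after adjustment over the whole table, and levels are given in CPM after TMM scaling. The comparisons within a line share libraries with those between the lines and with the interaction. In NF1-MET cells, capmatinib lowered 5 of the 10 members and raised 4, with *Myc* not called. Of all genes tested in that comparison, 35.5% were called higher and 34.7% lower. In the edited line, 6 members were lower and 4 higher, where 34.2% of all genes were called higher and 33.4% lower. With so many genes called in either line, the members' counts are near the background, and the size and direction of each change are therefore given. The median log2 fold change of the members was -0.11 in NF1-MET and -0.20 in the edited line, while that of all genes was 0.00 in both.

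**Figure D1:**
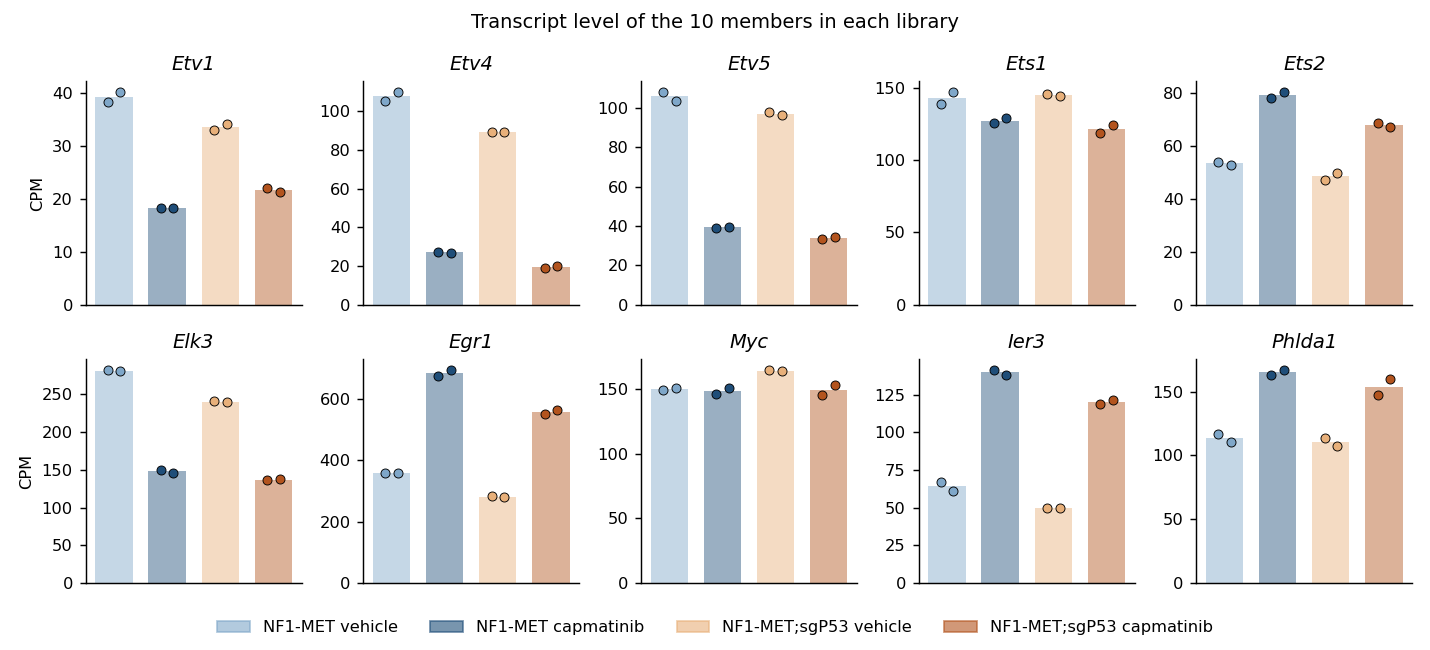
Transcript level of each of the 10 members in CPM in every library, with 1 panel per gene, an axis of its own for each panel, and 1 colour per group. The capmatinib libraries lie below the vehicle libraries for *Etv1*, *Etv4*, *Etv5*, *Ets1* and *Elk3* and above them for *Ets2*, *Egr1*, *Ier3* and *Phlda1* in both lines.

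Of the members, *Etv4* and *Etv5* of the PEA3 group fell most in both lines. *Etv4*, which drives migration and branching programmes downstream of receptor kinases, was measured at 105.3 and 110 CPM in NF1-MET on vehicle and at 27.4 and 27.0 CPM on capmatinib. The edited line had 89.4 and 89.1 CPM on vehicle against 18.9 and 20.04 CPM on capmatinib. All 4 vehicle libraries were far above all 4 capmatinib libraries. *Etv4* was 4.01-fold lower on capmatinib in NF1-MET (log2 fold change -2.00 with SE 0.0399, edgeR adjusted p = 6.78e-29) and 4.58-fold lower in the edited line (-2.20, SE 0.0419, edgeR adjusted p = 1.84e-21). Only 1.71% of the tested genes in NF1-MET and 1.27% in the edited line had a log2 fold change as low or lower.

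*Etv5*, a PEA3 factor with overlapping roles, was measured at 108.1 and 103.3 CPM in NF1-MET on vehicle and at 39.1 and 39.6 CPM on capmatinib. Cells of the edited line held 97.9 and 96.2 CPM on vehicle against 33.3 and 34.3 CPM on capmatinib. The groups did not overlap by treatment in either line. The fall was 2.71-fold in NF1-MET (log2 fold change -1.44 with SE 0.0370, edgeR adjusted p = 7.64e-26) and 2.87-fold in the edited line (-1.52, SE 0.0361, edgeR adjusted p = 9.75e-20).

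*Etv1*, the third PEA3 factor, was measured at 38.3 and 40.3 CPM in NF1-MET on vehicle and at 18.3 and 18.3 CPM on capmatinib. The NF1-MET;sgP53 libraries held 33.1 and 34.2 CPM on vehicle against 22.2 and 21.3 CPM on capmatinib. With vehicle the NF1-MET libraries were the higher ones, and on capmatinib the NF1-MET;sgP53 libraries were. The fall was 2.17-fold in NF1-MET (log2 fold change -1.12 with SE 0.0555, edgeR adjusted p = 4.13e-18) and 1.55-fold in the edited line (-0.63, SE 0.0544, edgeR adjusted p = 7.62e-10).

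Per length of exon, the PEA3 genes differed in level. Their summed level was 63.4 ± 0.331 CPM per kb (SD, n = 2) in NF1-MET on vehicle and 19.7 ± 0.0186 CPM per kb on capmatinib, and 54.9 ± 0.297 and 16.1 ± 0.403 CPM per kb in the edited line. *Etv4* made up 54.7% ± 1.39 of this sum in NF1-MET on vehicle and 44.4% ± 0.519 on capmatinib. In NF1-MET;sgP53 its share was 52.3% ± 0.173 on vehicle and 38.8% ± 0.643 on capmatinib. *Etv5* took 40.6% ± 1.53 and 48.6% ± 0.509 in NF1-MET, and 43.1% ± 0.298 and 51.0% ± 0.109 in the edited line. The share of *Etv1* was 4.66% ± 0.141 and 6.98% ± 0.0105 in NF1-MET, and 4.61% ± 0.126 and 10.1% ± 0.534 in the edited line. Which gene led on capmatinib depended on the length used. By exon length *Etv5* did, while per longest transcript, an alternative chosen after seeing the data, *Etv4* still led in NF1-MET (47.2% ± 0.503 against 41.2% ± 0.474) and *Etv5* led in the edited line (42.7% ± 0.0329 against 40.8% ± 0.793), where the levels of these genes in CPM per kb overlapped between libraries. *Etv4* led on vehicle by either length. Per longest transcript the share of *Etv1* was 7.71% and 11.6% in NF1-MET, and 7.66% and 16.6% in the edited line. By either length the share of *Etv4* was lower on capmatinib and the shares of *Etv5* and *Etv1* were higher, in both lines.

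*Elk3* belongs to another ETS group, the ternary complex factors, which bind DNA with serum response factor and are phosphorylated by ERK. It was measured at 283 and 281 CPM in NF1-MET on vehicle and at 149.6 and 146 CPM on capmatinib. In the edited line the levels were 241 and 240.2 CPM on vehicle against 136 and 137 CPM on capmatinib. The replicates differed by a few CPM and the treatments by more than 100 CPM in both lines. *Elk3* fell 1.93-fold in NF1-MET (log2 fold change -0.95 with SE 0.0255, edgeR adjusted p = 3.10e-25) and 1.76-fold in the edited line (-0.81, SE 0.0310, edgeR adjusted p = 4.86e-16). Of its exon bases, 6.95% (316 bases) overlap *Cdk17* on the other strand, and whether the counting used strand is not given in the sources used here.

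*Ets1* and *Ets2* are related ETS factors, both with a pointed domain and a threonine that ERK phosphorylates, and they moved in opposite directions. *Ets1* was at 139 and 147 CPM in NF1-MET on vehicle and at 126 and 129 CPM on capmatinib, and in the edited line at 146 and 144 CPM on vehicle against 119 and 124 CPM on capmatinib. The fall was small, 1.14-fold in NF1-MET (log2 fold change -0.18 with SE 0.0307, edgeR adjusted p = 3.08e-06) and 1.19-fold in the edited line (-0.25, SE 0.0344, edgeR adjusted p = 9.26e-07). *Ets2* was at 54.0 and 52.9 CPM in NF1-MET on vehicle and at 78.2 and 80.5 CPM on capmatinib, and in the edited line at 47.3 and 49.7 CPM on vehicle against 68.7 and 67.2 CPM on capmatinib. Every capmatinib library was above every vehicle library for *Ets2*. It rose 1.47-fold in NF1-MET (log2 fold change 0.55 with SE 0.0362, edgeR adjusted p = 5.38e-15) and 1.40-fold in the edited line (0.49, SE 0.0378, edgeR adjusted p = 1.38e-10).

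The early-response members rose with the inhibitor. *Egr1*, a zinc finger factor induced within minutes of ERK activation, was measured at 360.1 and 358 CPM in NF1-MET on vehicle and at 675 and 695 CPM on capmatinib. The edited line had 284 and 279 CPM on vehicle against 549.8 and 565 CPM on capmatinib. The capmatinib libraries of both lines were above all vehicle libraries. *Egr1* was 1.89-fold higher in NF1-MET (log2 fold change 0.92 with SE 0.0224, edgeR adjusted p = 2.01e-26) and 1.98-fold higher in the edited line (0.98, SE 0.0287, edgeR adjusted p = 3.90e-18).

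*Ier3*, an early-response regulator of cell survival, was measured at 67.3 and 61.4 CPM in NF1-MET on vehicle and at 142 and 138 CPM on capmatinib. Cells of the edited line held 50.2 and 49.6 CPM on vehicle against 119 and 121 CPM on capmatinib. It had the largest rise among the members in both lines. *Ier3* was 2.15-fold higher in NF1-MET (log2 fold change 1.10 with SE 0.0340, edgeR adjusted p = 1.12e-23) and 2.41-fold higher in the edited line (1.27, SE 0.0349, edgeR adjusted p = 1.36e-18). Its signed log2 fold change lay at percentile 89.4 of the tested genes in NF1-MET and at percentile 92.2 in the edited line.

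*Phlda1*, an early-response gene whose product can inhibit AKT, was measured at 116 and 110.3 CPM in NF1-MET on vehicle and at 163 and 167 CPM on capmatinib. The NF1-MET;sgP53 libraries held 113 and 107 CPM on vehicle against 147 and 160.1 CPM on capmatinib. The vehicle libraries of the lines overlapped, and all were below the capmatinib libraries. The rise was 1.44-fold in NF1-MET (log2 fold change 0.53 with SE 0.0300, edgeR adjusted p = 1.67e-16) and 1.39-fold in the edited line (0.48, SE 0.0401, edgeR adjusted p = 4.88e-10). Of its exon bases, 33.0% (727 bases) overlap the noncoding gene *Gm28592* on the other strand, so reads of the pair may be mixed.

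*Myc* had the smallest change among the members in both lines. It was measured at 148.9 and 151 CPM in NF1-MET on vehicle and at 146 and 150.4 CPM on capmatinib, and these libraries overlapped. The log2 fold change was -0.03 with a 95% interval of -0.09 to 0.03 (SE 0.0284, edgeR adjusted p = 0.307). In the edited line the levels were 165 and 163 CPM on vehicle against 145 and 153 CPM on capmatinib, a log2 fold change of -0.14 (SE 0.0336, edgeR adjusted p = 0.00109). With library totals in place of TMM factors, *Myc* was called lower in NF1-MET as well (-0.22, edgeR adjusted p = 0.000278), where the median of all genes was itself -0.18. The calls of the other 9 members in both lines kept their direction and their side of the threshold in all 13 alternatives tried.

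**Figure D2:**
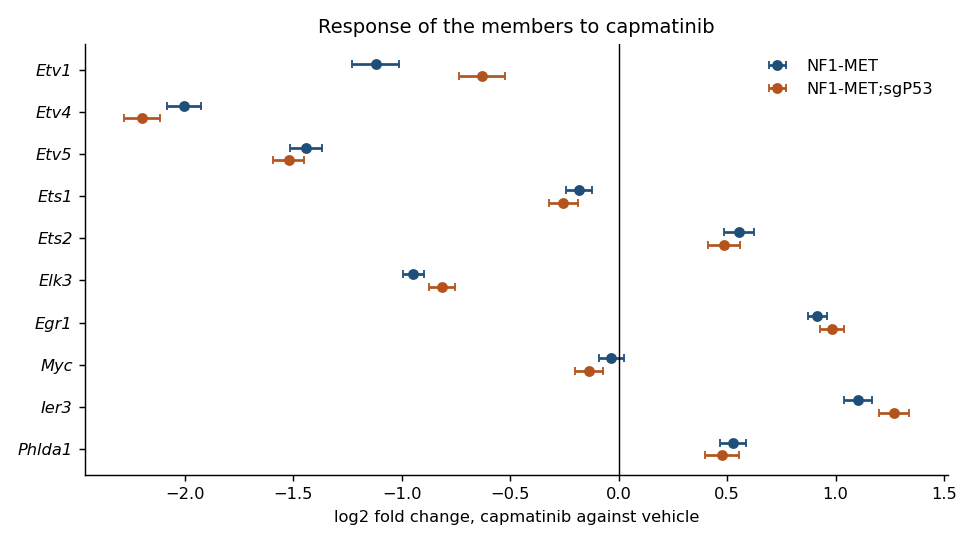
Log2 fold change of each member, capmatinib against vehicle, in NF1-MET and NF1-MET;sgP53, with bars for the 95% interval from edgeR's standard error. *Etv4* has the largest fall and *Ier3* the largest rise in both lines, *Myc* is close to 0, and the intervals of the lines are farthest apart for *Etv1*.

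The members were placed differently among all genes. *Etv4*, *Etv5*, *Etv1* and *Elk3* lay at percentiles 1.71, 3.17, 4.73 and 6.56 of the log2 fold change in NF1-MET, and at percentiles 1.27, 2.51, 13.4 and 8.73 in the edited line. The 4 members that rose lay between percentiles 77.2 and 89.4 in NF1-MET and between 76.3 and 92.2 in the edited line. *Ets1* and *Myc* lay in the middle, at percentiles 37.1 and 47.7 in NF1-MET and 31.1 and 39.6 in the edited line.

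**Figure D3:**
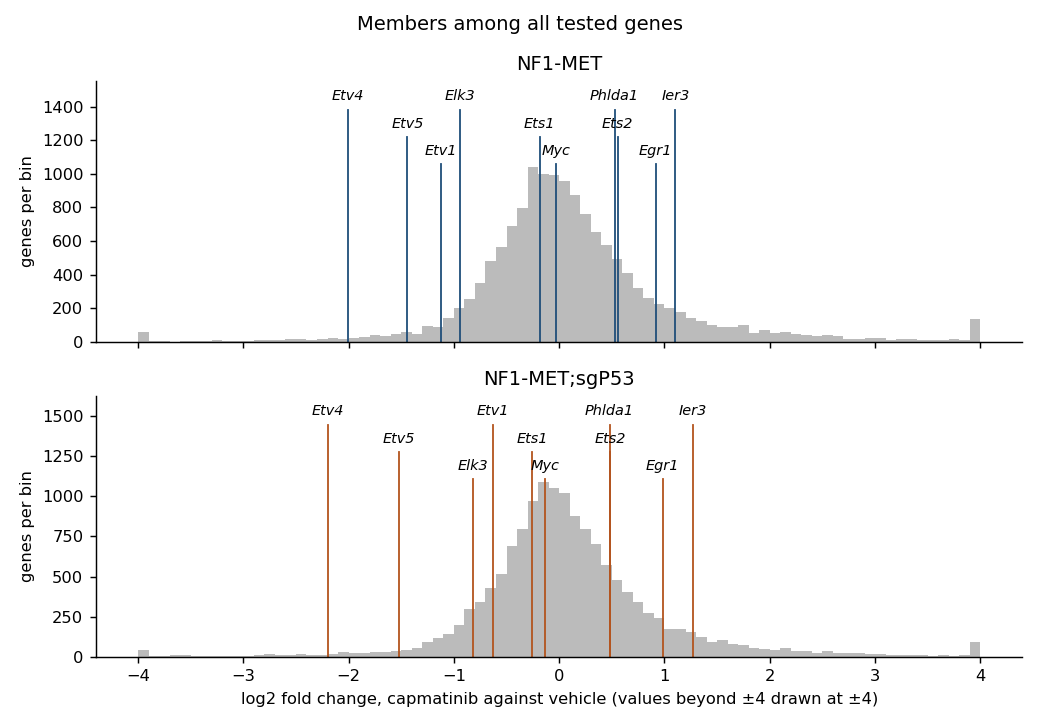
Distribution of the log2 fold change of all tested genes, capmatinib against vehicle, in NF1-MET and NF1-MET;sgP53, with the 10 members marked by name. *Etv4* and *Etv5* lie in the lower tail and *Ier3* and *Egr1* in the upper part, while *Myc* and *Ets1* lie near the centre.

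The members were placed on mm10 by the GENCODE annotation, on which *Etv1* is at chr12:38779380-38870484, *Etv4* at chr11:101769742-101785371, *Etv5* at chr16:22381309-22439719, *Ets1* at chr9:32636221-32757820 and *Ets2* at chr16:95702075-95721051. *Elk3* is at chr10:93247414-93311135, *Egr1* at chr18:34859823-34864984, *Myc* at chr15:61985391-61990374, *Ier3* at chr17:35821684-35822923 and *Phlda1* at chr10:111506286-111508645. *Etv5* and *Ets2* share chromosome 16, and *Elk3* and *Phlda1* share chromosome 10.

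Levels of different genes were compared as CPM per kb of annotated exon. In NF1-MET on vehicle the order was *Egr1* (80.0 ± 0.404, SD, n = 2), *Elk3* (61.9 ± 0.278), *Ier3* (56.9 ± 3.70), *Myc* (55.1 ± 0.466), *Phlda1* (51.4 ± 1.98), *Etv4* (34.7 ± 1.06), *Etv5* (25.8 ± 0.835), *Ets1* (16.9 ± 0.705), *Ets2* (9.25 ± 0.134) and *Etv1* (2.95 ± 0.105). *Ier3* and *Myc* overlapped in this group, and no other neighbours in the order overlapped in any group by this length. With capmatinib the NF1-MET order ran *Egr1*, *Ier3*, *Phlda1*, *Myc*, *Elk3*, *Ets1*, *Ets2*, *Etv5*, *Etv4* and *Etv1*, from 153 to 1.38 CPM per kb. The order was the same in the edited line on capmatinib, from 124 to 1.63 CPM per kb. In NF1-MET;sgP53 on vehicle, *Myc* at 60.4 CPM per kb stood next to *Egr1* at 62.9 CPM per kb, and *Ier3* at 44.1 CPM per kb stood below *Phlda1*. Dividing by the longest transcript instead changed the order in NF1-MET on vehicle, with *Myc* and *Phlda1* above *Ier3* and *Ets1* above *Etv5*, although *Phlda1* and *Ier3* then overlapped. In the edited line on vehicle it put *Myc* above *Egr1* and *Ets1* above *Etv5*, and *Elk3* and *Phlda1* overlapped. On capmatinib it put *Etv4* above *Etv5* in NF1-MET, and the levels of *Etv5* and *Etv4* overlapped in the edited line.

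The lines were then compared within a treatment. With vehicle, 7 members were lower in the edited line, 1 was higher and 2 were not called, where 12.3% of all genes were called lower and 10.9% higher. With capmatinib, 6 were lower, 1 was higher and 3 were not called, where 6.34% of all genes were called lower and 5.94% higher. The differences were small, with a median over the members of -0.20 on vehicle and -0.16 on capmatinib on the log2 scale and 0.00 over all genes. The count depended on the scaling, since with library totals 4 members were lower and none was higher on vehicle, and 1 was lower on capmatinib.

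*Egr1* and *Ier3* differed most between the lines on vehicle. *Egr1* was lower in the edited line by a log2 difference of -0.37 on vehicle (SE 0.0251, edgeR adjusted p = 8.66e-10) and -0.30 on capmatinib (SE 0.0251, edgeR adjusted p = 1.91e-07). *Ier3* was lower by -0.39 on vehicle (SE 0.0419, edgeR adjusted p = 6.51e-07) and -0.22 on capmatinib (SE 0.0319, edgeR adjusted p = 0.000122). The early-response members were thus lower in the edited line on both treatments, apart from *Phlda1* (-0.06 and -0.10, edgeR adjusted p = 0.270 and 0.0902). *Phlda1* was called lower on capmatinib without the low-count filter (-0.11, edgeR adjusted p = 0.0146) and without replicate 2 of NF1-MET;sgP53 on capmatinib (-0.15, edgeR adjusted p = 0.0145). With library totals the capmatinib differences of *Egr1* (-0.18) and *Ier3* (-0.10) were not called.

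Of the PEA3 genes, *Etv4* was lower in the edited line by -0.29 on vehicle (SE 0.0325, edgeR adjusted p = 1.05e-06) and -0.48 on capmatinib (SE 0.0577, edgeR adjusted p = 1.38e-05). It was called lower on both treatments in all 13 alternatives. *Etv5* was lower by -0.14 on vehicle (SE 0.0327, edgeR adjusted p = 0.00288) and -0.22 on capmatinib (SE 0.0457, edgeR adjusted p = 0.00319), and these calls were lost with library totals (-0.09 and -0.10), the latter also with DESeq2's Wald test (adjusted p = 0.0547). *Etv1* was lower on vehicle (-0.24, SE 0.0473, edgeR adjusted p = 0.000653) and was the only member higher on capmatinib (0.25, SE 0.0604, edgeR adjusted p = 0.0100). The vehicle call of *Etv1* was lost with library totals (-0.19, edgeR adjusted p = 0.0974). The capmatinib call was lost without replicate 1 of NF1-MET;sgP53 on capmatinib (0.22, edgeR adjusted p = 0.0606) and with DESeq2's Wald test (0.25, adjusted p = 0.137).

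*Elk3* was lower in the edited line on vehicle (-0.25, SE 0.0255, edgeR adjusted p = 3.40e-07) and on capmatinib (-0.11, SE 0.0320, edgeR adjusted p = 0.0273). Its capmatinib difference reversed to 0.00 with library totals, where the median of all genes was 0.11, and was not called without replicate 1 of NF1-MET on capmatinib (-0.10, edgeR adjusted p = 0.0883) or with DESeq2's Wald test (adjusted p = 0.101). *Ets2* was lower by -0.16 on vehicle (edgeR adjusted p = 0.00629) and -0.22 on capmatinib (edgeR adjusted p = 0.000121). Both *Ets2* calls were lost with library totals (-0.10 and -0.11, edgeR adjusted p = 0.416 and 0.545), and that on vehicle with DESeq2's Wald test (adjusted p = 0.0704). The vehicle call of *Ets2* was also lost without replicate 1 of NF1-MET on vehicle (-0.12) and without replicate 1 of NF1-MET;sgP53 on vehicle (-0.10), and that of *Etv5* without replicate 1 of NF1-MET (-0.09) and without replicate 2 of NF1-MET;sgP53 (-0.11). *Ets1* did not pass the test on either treatment (0.00 and -0.07, edgeR adjusted p = 0.978 and 0.221). *Myc* was higher on vehicle (0.11, SE 0.0278, edgeR adjusted p = 0.00574), a call lost with library totals (0.17, edgeR adjusted p = 0.0868), and was at 0.01 on capmatinib (edgeR adjusted p = 0.889).

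**Figure D4:**
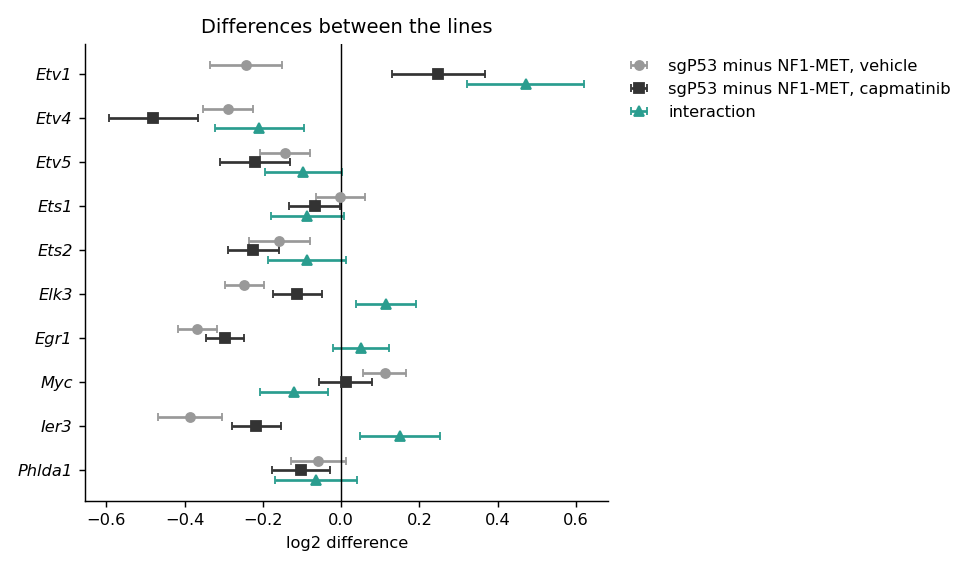
Log2 difference between NF1-MET;sgP53 and NF1-MET for each member on vehicle and on capmatinib, and the interaction, which is the response in NF1-MET;sgP53 minus that in NF1-MET, with bars for the 95% interval (the legend shortens NF1-MET;sgP53 to sgP53). *Etv1* is below 0 on vehicle and above 0 on capmatinib, and its interaction of 0.47 is the largest.

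Whether the response to capmatinib differed between the lines was tested as an interaction over the 8 libraries. The interaction was called for 2 of the 10 members, 1 in each direction, where 3.85% of all genes were called higher and 5.86% lower. The median was -0.08 over the members and -0.03 over all genes. *Etv1* fell less in the edited line, with a difference of 0.47 on the log2 scale (SE 0.0766, edgeR adjusted p = 0.000137). This call held in all 16 alternatives, with values of 0.43 to 0.55. *Etv4* fell more, with a difference of -0.21 (SE 0.0581, edgeR adjusted p = 0.0210). It was called in 7 of the 16 alternatives, and without any 1 of 5 of the 8 libraries (replicate 1 of each group and replicate 2 of NF1-MET;sgP53 on capmatinib) it was not called, with values of -0.22 to -0.17.

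For the other 8 members the interaction did not pass the test. *Ier3* (0.15, SE 0.0523, edgeR adjusted p = 0.0744) and *Elk3* (0.11, SE 0.0386, edgeR adjusted p = 0.0621) were nearest to the threshold. Both were called with the size factors of DESeq2, with no filter and without *Gm42418*, at 0.16, 0.17 and 0.18 for *Ier3* and 0.13, 0.14 and 0.15 for *Elk3*. *Ier3* was also called without replicate 2 of NF1-MET on vehicle (0.22) and *Elk3* without replicate 2 of NF1-MET;sgP53 on capmatinib (0.14). *Myc* was at -0.12 (edgeR adjusted p = 0.0982), *Etv5* at -0.10, *Ets1* at -0.09, *Ets2* at -0.09, *Phlda1* at -0.06 and *Egr1* at 0.05, with adjusted p-values between 0.276 and 0.543.

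Other genes of the pathway were described from lists, whose counts are to be read against the shares of all genes called. Those shares were 35.5% higher and 34.7% lower in NF1-MET, and 34.2% and 33.4% in the edited line. For the interaction they were 3.85% higher and 5.86% lower. List counts near these shares are no result about the list. Of 7 further ERK output genes, which include phosphatases and Sprouty proteins that feed back on the cascade, 6 were lower and 1 higher on capmatinib in NF1-MET, with a median of -0.57. In NF1-MET;sgP53 5 were lower, 1 was higher and 1 was not called, with a median of -0.36. *Dusp4*, a phosphatase of ERK, had the largest fall, from 81.6 ± 0.0968 to 15.4 ± 0.550 CPM (SD, n = 2) in NF1-MET and from 55.2 ± 0.975 to 13.2 ± 0.678 CPM in the edited line. Its log2 fold change was -2.42 in NF1-MET and -2.06 in the edited line, while that of *Etv4* was -2.00 and -2.20. The interaction of *Dusp4* was 0.34 (SE 0.0727, edgeR adjusted p = 0.00248). *Epha4*, an ephrin receptor, was the gene that rose, by 2.51 and 2.59, from a level under 1 CPM. The interaction was called for 3 of the 7, all with the higher value in the edited line, while with library totals 2 were called higher.

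Of 22 other early-response genes, 20 were tested, and 15 were higher and 5 lower on capmatinib in NF1-MET, with a median of 0.68. In NF1-MET;sgP53 12 were higher, 5 lower and 3 not called, with a median of 0.70. *Btg2*, an antiproliferative gene, rose from 6.61 ± 0.310 to 90.5 ± 0.0454 CPM in NF1-MET (log2 fold change 3.76, SE 0.0544). *Nr4a3*, an orphan nuclear receptor, rose from 0.683 ± 0.0605 to 7.56 ± 1.54 CPM in the edited line (3.45, SE 0.194). *Klf10*, a factor induced by TGF-beta, fell by 1.34 in NF1-MET and by 1.15 in the edited line on the log2 scale. *Egr1*, *Ier3* and *Phlda1* thus moved in the direction of most genes of this list. The interaction was called for 9 of the 20, with 7 lower, such as *Ier2* (-0.42, SE 0.0483, edgeR adjusted p = 1.54e-06), and 2 higher, such as *Nr4a2* (0.54, SE 0.0902, edgeR adjusted p = 0.000208). With library totals none of the 7 was called, and without *Gm42418* the split was 6 higher and 6 lower.

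Among 20 other ETS genes, 10 were tested, and 5 were higher and 3 lower in either line, with medians of 0.12 and 0.13. With library totals 1 was higher and 3 were lower in either line. *Erg*, an endothelial ETS factor, had the largest rise of the list in both lines, at a very low level, with 3 and 1 counts in NF1-MET on vehicle and 42 and 78 on capmatinib, and 4 and 4 counts against 116 and 106 in the edited line. The endothelial markers given above stayed under 1 CPM in sum. The largest falls were those of *Etv6*, an ETS repressor, in NF1-MET (-0.40, SE 0.0364) and of *Gabpa*, a factor of housekeeping promoters, in the edited line (-0.23, SE 0.0352). *Etv6* was also the 1 gene of the list with a called interaction (0.19, edgeR adjusted p = 0.0104), which was lost with library totals (adjusted p = 0.293) and with DESeq2's Wald test (adjusted p = 0.0604).

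*Myc* was set beside its partners and its textbook targets. All 20 target genes, which serve ribosome production, nucleotide synthesis and growth, were lower on capmatinib in both lines, with medians of -0.80 and -0.81. *Nolc1*, a nucleolar protein, had the largest fall, from 171.4 ± 3.08 to 82.5 ± 1.64 CPM in NF1-MET and from 175 ± 0.725 to 83.1 ± 0.513 CPM in the edited line (-1.07 in both lines). The *Myc* transcript itself was at -0.03 and -0.14, so the list and the gene moved by different amounts. Of 11 partners and antagonists of MYC, 10 were tested, and 4 were higher and 3 lower in NF1-MET and 5 higher and 3 lower in the edited line, while with library totals 3 were higher and 4 lower, and 2 higher and 3 lower. *Mxd4*, which competes with MYC for its partner MAX, rose from 15.1 ± 1.10 to 82.3 ± 2.26 CPM in NF1-MET and from 12.1 ± 0.737 to 79.7 ± 0.640 CPM in the edited line (2.42 and 2.72). Its interaction was 0.28 (SE 0.0754, edgeR adjusted p = 0.0187), which was not called with library totals (adjusted p = 0.149). *Zbtb17*, also known as Miz1, had the largest fall of that list (-0.39 and -0.34). *Srm*, spermidine synthase, had the largest called interaction among the target genes (-0.32, edgeR adjusted p = 5.96e-05), which was not called with library totals (adjusted p = 0.368), and that of *Mycl* (-0.33, edgeR adjusted p = 0.0496) was lost in all 6 alternatives of scaling, filter and test.

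**Figure D5:**
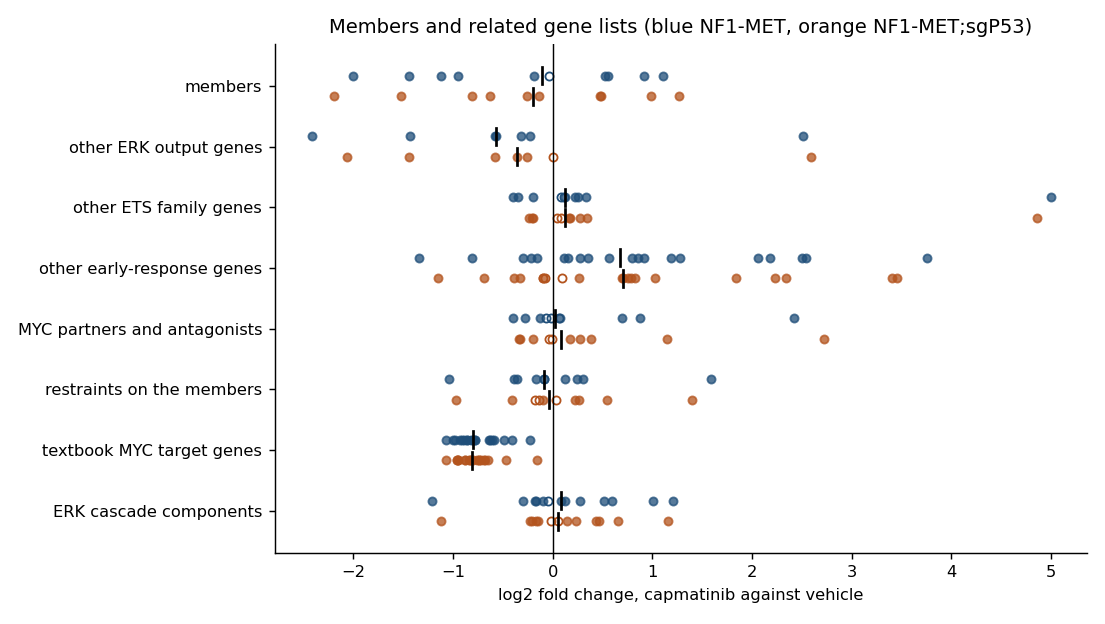
Log2 fold change, capmatinib against vehicle, of the genes of each related list in NF1-MET and NF1-MET;sgP53, with filled points for an adjusted p under 0.05, open points for the others and a black bar for the median of the list. The 20 MYC target genes are all below 0 in both lines, while most of the other early-response genes are above 0.

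The 10 genes that restrain the members, such as repressors and ubiquitin ligase adaptors, were split, with 4 higher and 5 lower in NF1-MET and 4 higher and 3 lower in the edited line. With library totals the split was 1 and 6, and 2 and 4. *Cic* itself, the repressor of the PEA3 genes, was at 227 ± 2.83 CPM on vehicle against 179 ± 5.94 CPM on capmatinib in NF1-MET, and at 192 ± 1.08 and 179.7 ± 1.24 CPM in the edited line. Its fall was smaller in the edited line (interaction 0.25, SE 0.0411, edgeR adjusted p = 0.000199), a call that was lost with library totals (adjusted p = 0.0922). *Atxn1*, whose product works with CIC, rose by 1.58 and 1.40 on the log2 scale (interaction -0.20, edgeR adjusted p = 0.0200, not called without *Gm42418*, with library totals or with DESeq2's Wald test). *Trib1*, which links substrates to the ligase COP1, had the largest fall (-1.04 and -0.97).

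Of 13 components of the ERK cascade, 7 were higher and 5 lower in NF1-MET and 6 higher and 5 lower in the edited line, and with library totals 4 were higher in either line, with 6 and 5 lower. *Braf*, a RAF kinase, rose from 37.7 ± 0.539 to 87.7 ± 0.209 CPM in NF1-MET and from 43.6 ± 0.368 to 97.5 ± 4.23 CPM in the edited line (1.20 and 1.16). *Rps6ka1*, which encodes a kinase activated by ERK, fell by 1.21 in NF1-MET and by 1.13 in the edited line on the log2 scale. *Rps6ka2*, its relative, was the 1 gene of the list with a called interaction (-0.37, edgeR adjusted p = 0.000748), which was lost with library totals (adjusted p = 0.339).

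The gene most like each member over the means of the 4 groups was sought among 8649 genes whose mean over the 8 libraries reached 10 CPM, as the smallest distance between centred log2 levels. For *Etv4* it was *Hbegf*, which encodes a ligand of the EGF receptor, at a distance of 0.150. *Hbegf* was at 163 ± 2.02 and 35.7 ± 1.23 CPM in NF1-MET and at 122 ± 0.595 and 27.6 ± 1.39 CPM in the edited line. For *Etv5* it was *Ccnd1*, which encodes cyclin D1, at a distance of 0.0745, with 1432 ± 4.89 and 538 ± 3.93 CPM in NF1-MET and 1241 ± 8.88 and 456 ± 3.35 CPM in the edited line. For *Etv1* it was *Mt2*, a metallothionein, at a distance of 0.0759, with 53.9 ± 1.04 and 25.4 ± 0.397 CPM in NF1-MET and 43.6 ± 2.09 and 29.7 ± 1.47 CPM in the edited line. *Mt2* had the same crossing as *Etv1*, lower in the edited line on vehicle and higher on capmatinib. The nearest genes of the others were *Hdac6* for *Elk3*, *Afg3l2* for *Ets1*, *Itpr2* for *Ets2*, *Sgcd* for *Egr1*, *Mpg* for *Myc*, *Pou6f1* for *Ier3* and *Tfcp2* for *Phlda1*, at distances of 0.00464 to 0.0834. With 4 means per gene and so many candidates, a close match is easily found. Among the members themselves, *Ets2* and *Phlda1* were closest (0.113), followed by *Ets1* and *Myc* (0.165), *Egr1* and *Ier3* (0.244), and *Etv1* and *Elk3* (0.255).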

How the data were processed

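Per the study's methods, paired-end reads of poly(A) RNA were demultiplexed (bcl2fastq 1.9.0), trimmed with Trim Galore 0.4.2, checked with FastQC 0.11.7 and mapped to mm10 with STAR 2.5.2b. The deposited values are raw counts per gene, which the authors neither normalized nor filtered. The annotation release and strand setting are not given in the sources used here. The members and lists were chosen with earlier results of these data known.

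The 14497 genes that reached 10 counts in 2 or more of the 8 libraries, and had counts above 0 in at least 2 libraries of the comparison, were tested with edgeR 4.0.16 (R 4.3.3, limma 3.58.1) by its quasi-likelihood test, with TMM factors within a comparison and Benjamini-Hochberg adjustment over all genes. The genes removed held 0.0396% of the counts. CPM used TMM factors over the 8 libraries (0.898 to 1.10). Exon lengths and overlaps came from GENCODE M21, and promoter windows from RefSeq. All members were named, as were, from each list, the called gene with the largest rise and fall with at least 1 CPM in the higher group, in both capmatinib comparisons and the interaction, and the gene nearest to each member. *Trp53*, *Cdkn1a*, marker genes and *Gm42418* served as checks. The CCAAT, TATA, AP-1 and NF-kB letters were added after the windows were seen. DESeq2 1.42.0 was an alternative. The tests were tried on simulated counts.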

Additional observations from a re-analysis of the deposited data

Results flagged for a closer look

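The response to capmatinib differed between the lines for 2 members by the interaction test of edgeR over the 8 libraries. For *Etv1* the response in NF1-MET;sgP53 minus that in NF1-MET was 0.47 on the log2 scale (adjusted p = 0.000137 from edgeR). For *Etv4* it was -0.21 (adjusted p = 0.0210 from edgeR), and this call was lost in 9 of 16 alternatives.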

How the results depend on the processing

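Of 680 recomputed values of 50 results for single members, 641 kept their direction and side of the threshold, 27 lost a call, 11 gained one and 1 reversed, namely *Elk3* between the lines in capmatinib (0.0031 with library totals). With library totals, the members called between the lines in vehicle were 0 higher and 4 lower, those called lower in capmatinib were 1, and no interaction was called lower (0). With DESeq2's Wald test, 0 were higher between the lines in capmatinib and 0 lower in the interaction. The members with a higher interaction were 3 under the size factors of DESeq2, 3 when no filter was used and 3 without *Gm42418*, and those with a lower one were 0 without the filter and 0 without *Gm42418*. Leaving out 1 library gave 0 to 1 members higher between the lines in capmatinib, and 1 to 2 higher and 0 to 1 lower interactions. Where a library was left out, the lone sample of its group was assumed to vary like the other groups.

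Same-numbered libraries deviated together only weakly (correlations -0.0536 to 0.102). Whether they shared a plate, day or preparation is not stated in the sources used here, and these correlations cannot decide it. With the replicate block, 4 and 5 members were higher and lower in NF1-MET, 4 and 6 in the edited line, 1 and 7 between the lines in vehicle, 1 and 6 in capmatinib, and 1 and 1 in the interaction, and no member's call changed.

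Over all genes, library totals moved the split of higher and lower calls from 5140 and 5029 to 3508 and 6381 in NF1-MET, where the median of all genes moved to -0.18. It moved from 4963 and 4841 to 3260 and 4933 in NF1-MET;sgP53 (median -0.12), from 1580 and 1775 to 1280 and 743 between the lines in vehicle (0.06), from 860 and 918 to 537 and 129 in capmatinib (0.11), and from 558 and 849 to 192 and 123 for the interaction (0.05). The interaction split was 873 and 612 without *Gm42418* and 808 and 700 without the filter, and between the lines in vehicle it was 2051 and 1531 with all libraries in 1 model. DESeq2's Wald test gave 833 and 1100 between the lines in vehicle, 436 and 434 in capmatinib and 433 and 461 for the interaction. Leaving out 1 library gave 1394 to 1632 and 1095 to 1246 in vehicle, 512 to 730 and 560 to 717 in capmatinib, and 377 to 713 and 509 to 738 for the interaction. Relative to the median of all genes, the *Myc* value in NF1-MET with library totals (-0.22) was close to the median itself. The causes were not tested.

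Per longest transcript, the NF1-MET vehicle levels were 5.97 CPM per kb for *Etv1*, 44.9 for *Etv4*, 28.1 for *Ets1*, 13.7 for *Ets2*, 66.9 for *Elk3*, 64.1 for *Myc* and 58.2 for *Phlda1*. With 2 libraries per group, small differences may have been missed, and no limit of detection was measured.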
